A study of Homo sapiens with 6 samples.

Results

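Immediate early genes are the first genes switched on when a growth factor or a stress reaches a cell, and many of them encode transcription factors that set the later response. Signalling from RAS through the kinases RAF, MEK and ERK drives them by phosphorylating ETS-family factors that sit with serum response factor, SRF, at the promoters of EGR1, FOS and IER genes, while stress kinases of the JNK family act on JUN. Sorafenib, a kinase inhibitor used against liver cancer, has RAF kinases and growth factor receptors among its targets. The 10 genes described here are the zinc finger factor EGR1, the AP-1 factors FOS, FOSL1, JUN and JUNB, the growth regulator MYC, the early response proteins IER2 and IER3, and the PEA3-type ETS factors ETV4 and ETV5. They were picked by symbol from the 34690 symbols of the deposited signal tables, and all 10 had 1 row in each table.

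RNA came, by the labels, from SNU761, an established human hepatocellular carcinoma cell line, and was hybridised to Illumina BeadChip arrays after labelling as biotinylated cRNA. The sorafenib group was exposed to sorafenib at 3 mM, the dose as the labels write it, for 24 h (3 arrays), and the control group to the vehicle DMSO alone for 24 h (3 arrays). Sorafenib is usually given to cultured cells at micromolar levels, so whether the printed unit is right cannot be settled here. The arrays of each group are numbered 1 to 3, and an array of sorafenib and an array of control with the same number are called a pair. Nothing in the labels says whether the replicates came from separate cultures, so p-values measure the spread between these samples, which may be technical. Because immediate early transcripts peak soon after a stimulus and decay quickly, the comparison shows their level in cells held in the drug, not their first induction.

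The arrays numbered 3 stood apart from the others in both groups. Across tested symbols, Pearson's r was 0.793 to 0.833 between an array numbered 3 and the other arrays, against 0.932 to 0.959 between arrays numbered 1 and 2. Of 10 hepatocyte and liver cancer markers, 9 were detected on all 4 arrays numbered 1 or 2, but only 6 on both arrays numbered 3. The liver cancer antigen GPC3 was at a log2 level of 4.83 on sorafenib array 3 and 4.84 on control array 3, while it lay at 13.81 to 14.28 on the remaining arrays. The liver markers did not move together. ALB was higher on sorafenib and control array 3, at 14.05 and 14.43, against 8.97 to 9.88 on the others. SERPINA1 was at 13.62 and 13.51 there, against 12.57 to 13.36. Of the blood cell markers, PTPRC and CD3E were detected on 0 of 6 arrays, and 6 of 8 endothelial markers were likewise detected on none. RAC2, a blood cell marker, was at 14.51 and 14.02 on sorafenib and control array 3, against 5.04 to 5.54 on the others. Summed signals per array under sorafenib and in control were 3752 to 29376 and 3887 to 22639 over 10 blood cell markers, 7655 to 23302 and 6616 to 27408 over 10 mesenchymal markers, and 377 to 662 and 335 to 972 over 8 endothelial markers, and the part of such cells in the results was not tested. Per array, the median signal was 134 to 171 intensity units and 13195 to 15227 symbols were detected. All 6 arrays carry the same cell line label, but by these transcripts the arrays numbered 3 do not look like the others, and whether they hold other cells cannot be settled here. A mean over 3 pairs may then join different cells, so results are given for each pair, and for pairs 1 and 2 alone.

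A symbol was tested where its detection p, the chance that background alone gives as high a signal, was under 0.05 on at least 3 of the 6 arrays. This left 14641 symbols and 9 of the 10 genes. FOS was detected on 2 arrays only and was not tested. With the replicate number as a block, limma called 0 of the 9 genes and 0 of all 14641 symbols (0% of the background) at an adjusted p under 0.05. At an unadjusted p under 0.05 there were 4 of the 9, namely EGR1, JUN, IER3 and ETV4, against 2776 symbols (19% of all tested). The same fit with limma's trend and robust options, called the paired trended fit from here on, also called 0 of the 9. It called 141 symbols, 0.963% of all tested (0.458% lower and 0.505% higher). The limma fit without the block called 0 of both, with 308 symbols (2.1% of all tested) at an unadjusted p under 0.05. With 3 pairs, an exact two-sided sign-flip permutation test of a single gene cannot go below p = 0.25.

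Without pair 3 the count differed. The paired fit then called EGR1 lower and JUN higher, 2 of the 9 genes, against 271 symbols, 1.85% of all tested (0.867% lower and 0.984% higher). The paired trended fit without pair 3, chosen after the values were seen, called 5 of the 9: EGR1, IER3, ETV4 and ETV5 lower, and JUN higher, against 1283 symbols, 8.76% of all tested (4.66% lower and 4.1% higher). These fits rest on 2 pairs, with a spread that limma shares across genes, and 0 genes of the 9 were called without pair 1 or without pair 2 in either kind of fit. Over the 9 tested genes the median difference, sorafenib minus control, was −0.25 on the log2 scale. The pair medians were −0.65, −0.52 and 0.0058 in pairs 1, 2 and 3, and the median of all tested symbols lay at −0.00065.

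**Figure D1:**
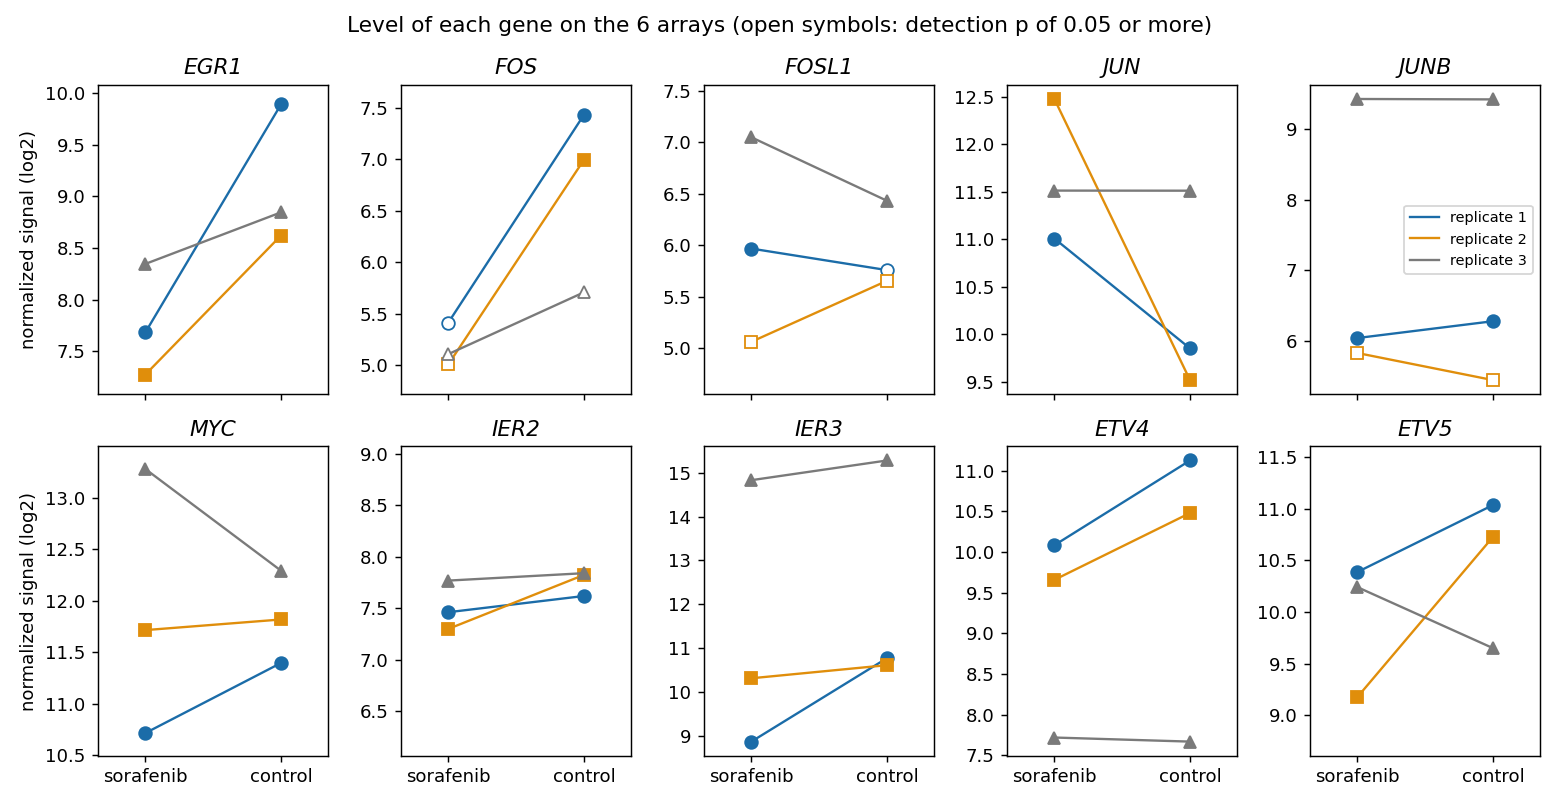
Normalized log2 signal (vertical axes, with a separate scale in each panel) of the 10 genes on the sorafenib (left) and control (right) arrays, with a line for each replicate number and open symbols where the detection p was 0.05 or more. EGR1 slopes the same way in all 3 pairs, at 7.27 to 8.35 under sorafenib and 8.62 to 9.89 in control, whereas JUN differs in pairs 1 and 2 and is level in pair 3.

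EGR1, an SRF- and ETS-driven zinc finger factor and a classical readout of ERK activity, was lower under sorafenib in every pair. Its log2 level was 7.68, 7.27 and 8.35 on sorafenib arrays 1, 2 and 3, against 9.89, 8.62 and 8.85 on control arrays 1, 2 and 3. The highest sorafenib array lay below the lowest control array, which held for 3.25% of all tested symbols in this direction. The deposited signals showed the same order, with 331, 251 and 431 intensity units under sorafenib and 1161, 509.9 and 593 units in control. The difference was −2.21, −1.35 and −0.50 in pairs 1, 2 and 3, a mean of −1.35 ± 0.86 (SD, n = 3 pairs) or 2.56-fold lower. Its adjusted p was 0.13 in limma's paired fit and 0.0724 in the paired trended fit, so it did not pass with all pairs. In pair 1 a single tested symbol showed a lower difference than EGR1, while in pair 3 there were 1847. Without pair 3 the mean was −1.78, with an adjusted p of 0.0311 in limma's paired fit and 7.55e-05 in the paired trended fit.

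FOS, the AP-1 partner of JUN and another SRF target, was measured above background in control only. Its signal was 122, 117 and 128 intensity units on sorafenib arrays 1, 2 and 3, with detection p-values of 0.23, 0.722 and 0.661. In control the signal was 294, 253 and 174 units, with detection p-values of 0.0026, 0.0026 and 0.121. It was thus detected on 0 of 3 sorafenib and on 2 of 3 control arrays, and the sorafenib level is only a bound. On the log2 scale the means of the values as given were 5.18 under sorafenib and 6.71 in control. These values did not overlap between groups, which held for 3.25% of all tested symbols in this direction. As control array 3 (5.71) and the sorafenib arrays (5.01 to 5.42) were not detected, their order was not measured. Set against the lowest signal of a detected single-probe symbol on each sorafenib array, FOS was at least 3.15-fold lower under sorafenib in pair 1 and at least 1.96-fold lower in pair 2. In pair 3 both arrays were at background, so no ratio is given for it or over all 3 pairs. When all symbols were tested without a detection filter, its adjusted p in limma's paired fit was 0.213.

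JUN, the AP-1 subunit that JNK activates and that can induce its own gene, went the other way. Its log2 level was 11.01, 12.48 and 11.51 on sorafenib arrays 1, 2 and 3, against 9.85, 9.51 and 11.51 on control arrays 1, 2 and 3. In deposited units, sorafenib arrays 1 and 2 read 2435 and 5126, against 1131 and 831 on the matching control arrays. Arrays 3 read 2985 under sorafenib and 3056 in control. JUN was thus higher in pairs 1 and 2 and equal in pair 3, where the control level already stood above control arrays 1 and 2, so the groups overlapped. The differences were 1.16, 2.96 and 0.0012, which are 2.23-fold, 7.79-fold and 1.00-fold, with a mean of 1.37 ± 1.49 (SD, n = 3 pairs; adjusted p = 0.22, limma's paired fit). In pair 2 only 9 tested symbols differed upward by more than JUN, and in pair 1 there were 108. Without pair 3 the mean was 2.06, and JUN passed in both fits (adjusted p = 0.0389 in limma's paired fit and 0.00494 in the paired trended fit). So EGR1 and JUN, both immediate early genes, differed in opposite directions in the same pairs 1 and 2.

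The promoters of EGR1, FOS and JUN are shown because these genes differed most in pairs 1 and 2, EGR1 and FOS downward and JUN upward. The RefSeq promoter table (GRCh38.p14) held 5 of the 10 genes: EGR1, FOS, JUN, JUNB and IER2. Each line gives the 250 bases before the transcription start, 5′ to 3′ on the gene's strand, and capitals mark the CArG boxes (SRF sites) in EGR1, the motif TGACG, part of the cAMP response element, in FOS, and the AP-1-like motif TGACATCA and the MEF2 box in JUN.
EGR1, chr5:138465229-138465478, plus strand: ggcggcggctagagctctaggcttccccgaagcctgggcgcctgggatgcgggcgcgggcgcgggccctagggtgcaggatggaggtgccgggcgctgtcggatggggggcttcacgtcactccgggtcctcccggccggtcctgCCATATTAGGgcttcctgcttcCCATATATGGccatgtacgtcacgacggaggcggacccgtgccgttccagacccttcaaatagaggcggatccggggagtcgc
FOS, chr14:75278578-75278827, plus strand: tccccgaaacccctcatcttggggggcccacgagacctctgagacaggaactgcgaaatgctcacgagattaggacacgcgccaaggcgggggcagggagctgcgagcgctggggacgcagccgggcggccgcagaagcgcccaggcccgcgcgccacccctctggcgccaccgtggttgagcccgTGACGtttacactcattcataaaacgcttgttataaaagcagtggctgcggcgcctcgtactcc
JUN, chr1:58784048-58784297, minus strand: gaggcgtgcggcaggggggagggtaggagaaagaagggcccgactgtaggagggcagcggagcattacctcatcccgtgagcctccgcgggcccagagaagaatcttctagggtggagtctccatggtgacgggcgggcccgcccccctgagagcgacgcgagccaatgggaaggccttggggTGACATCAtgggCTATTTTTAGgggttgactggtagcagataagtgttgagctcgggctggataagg
A search of both strands for the CArG box, the MEF2 box, the motif TGACG and its full palindrome TGACGTCA, the AP-1-type motif TGACATCA, the AP-1 motif TGAGTCA, the ETS motif CCGGAAGT and the EGR1 motif GCGTGGGCG in such 250-base windows found 2 CArG boxes in EGR1, and none in FOS, JUN, JUNB or IER2. Among 35116 promoters of the table, 1.16% held a CArG box. The first EGR1 box, CCATATTAGG, spans bases 105 to 96 before the start, and the second, CCATATATGG, bases 83 to 74. JUN held TGACATCA at bases 67 to 60 before the start, a motif found in 2.37% of promoters, and a MEF2 box at bases 55 to 46, found in 2.80%. TGACG, which TGACGTCA contains, was present in all 5 windows and in 21.2% of promoters. The full palindrome TGACGTCA, the AP-1 motif TGAGTCA and the ETS and EGR1 motifs were in none of the 5, and are held by 1.65%, 4.2%, 3.42% and 0.72% of promoters in that order. These matches describe the sequence only. The ETS motif was searched only in the exact form CCGGAAGT, so other forms of an ETS site were not looked for. No binding was measured, and the serum response element of FOS is known from other work to lie farther upstream than this window.

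JUNB and FOSL1, further AP-1 subunits, did not follow either pattern. JUNB had a log2 level of 6.04, 5.83 and 9.43 on sorafenib arrays 1, 2 and 3, against 6.28, 5.45 and 9.42 on control arrays 1, 2 and 3. It was near background on the arrays numbered 1 and 2, where array 2 was not detected in either group, and far higher on both arrays numbered 3. Its mean difference was 0.05 ± 0.31 (SD, n = 3 pairs; adjusted p = 0.898, limma's paired fit), with a 95% interval of −0.39 to 0.49. FOSL1, a FOS relative known as a late ERK-dependent target, was at 5.97, 5.06 and 7.05 under sorafenib and at 5.76, 5.66 and 6.43 in control. It was detected on sorafenib arrays 1 and 3 and on control array 3, so the values at numbers 1 and 2 lie near background. Its differences of 0.21, −0.59 and 0.62 went both ways, and the mean was 0.08 ± 0.61 (SD, n = 3 pairs; adjusted p = 0.885, limma's paired fit).

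ETV4 and ETV5 are ETS factors whose transcripts depend on ERK in many cancer cells, where ERK relieves their repression by CIC. ETV4 was at 10.09, 9.66 and 7.72 on sorafenib arrays 1, 2 and 3, against 11.13, 10.48 and 7.67 on control arrays 1, 2 and 3. It was lower under sorafenib in pairs 1 and 2, by 2.06-fold and 1.77-fold, and level in pair 3, whose arrays held the lowest ETV4 of both groups. The mean difference was −0.60 ± 0.58 (SD, n = 3 pairs; adjusted p = 0.248, limma's paired fit). Without pair 3 it was −0.93, with an adjusted p of 0.0643 in limma's paired fit and 0.00594 in the paired trended fit.

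ETV5 had the same order in pairs 1 and 2 and the opposite one in pair 3. Its level was 10.39, 9.17 and 10.24 on sorafenib arrays 1, 2 and 3, against 11.04, 10.73 and 9.65 on control arrays 1, 2 and 3. It was 1.57-fold lower in pair 1 and 2.94-fold lower in pair 2, and 1.51-fold higher in pair 3, so that the groups overlapped. The mean was −0.54 ± 1.08 (SD, n = 3 pairs; adjusted p = 0.475, limma's paired fit). Without pair 3 it was −1.10, with an adjusted p of 0.067 in limma's paired fit and 0.00283 in the paired trended fit. The detection p of ETV5 on sorafenib array 2 was 8.43e-07, below the smallest step that 770 negative controls allow, so more than 1 probe may stand behind its value. Within the tolerance of 0.001 set for whole multiples of 1/770, ETV5 was still counted among the 27247 single-probe symbols that gave the background.

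IER3, a survival protein induced by ERK and NF-kB, was lower under sorafenib in all 3 pairs. It was at 8.88, 10.32 and 14.83 on sorafenib arrays 1, 2 and 3, against 10.78, 10.62 and 15.27 on control arrays 1, 2 and 3. Pair 1 carried most of the difference, at −1.90, with −0.30 in pair 2 and −0.45 in pair 3, and the groups overlapped because both arrays numbered 3 were far brighter. The mean was −0.88 ± 0.88 (SD, n = 3 pairs; adjusted p = 0.22, limma's paired fit). Without pair 3 it was −1.10, with an adjusted p of 0.127 in limma's paired fit and 0.0439 in the paired trended fit. IER2, a nuclear early response protein, was also lower in all pairs, by less. It was at 7.46, 7.30 and 7.77 under sorafenib and at 7.62, 7.82 and 7.84 in control, a mean difference of −0.25 ± 0.24 (SD, n = 3 pairs; adjusted p = 0.464, limma's paired fit).

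MYC, whose transcript and protein ERK signalling can sustain, split by pair. It was at 10.72, 11.72 and 13.28 on sorafenib arrays 1, 2 and 3, against 11.40, 11.82 and 12.29 on control arrays 1, 2 and 3. MYC was thus 1.60-fold lower in pair 1, 1.07-fold lower in pair 2 and 1.98-fold higher in pair 3, where 416 of the tested symbols differed upward by more. The mean was 0.07 ± 0.85 (SD, n = 3 pairs; adjusted p = 0.919, limma's paired fit), with a 95% interval of −0.68 to 0.81. Without pair 3 it was −0.39, and it passed in neither fit (adjusted p = 0.399 in limma's paired fit and 0.235 in the paired trended fit).

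**Figure D2:**
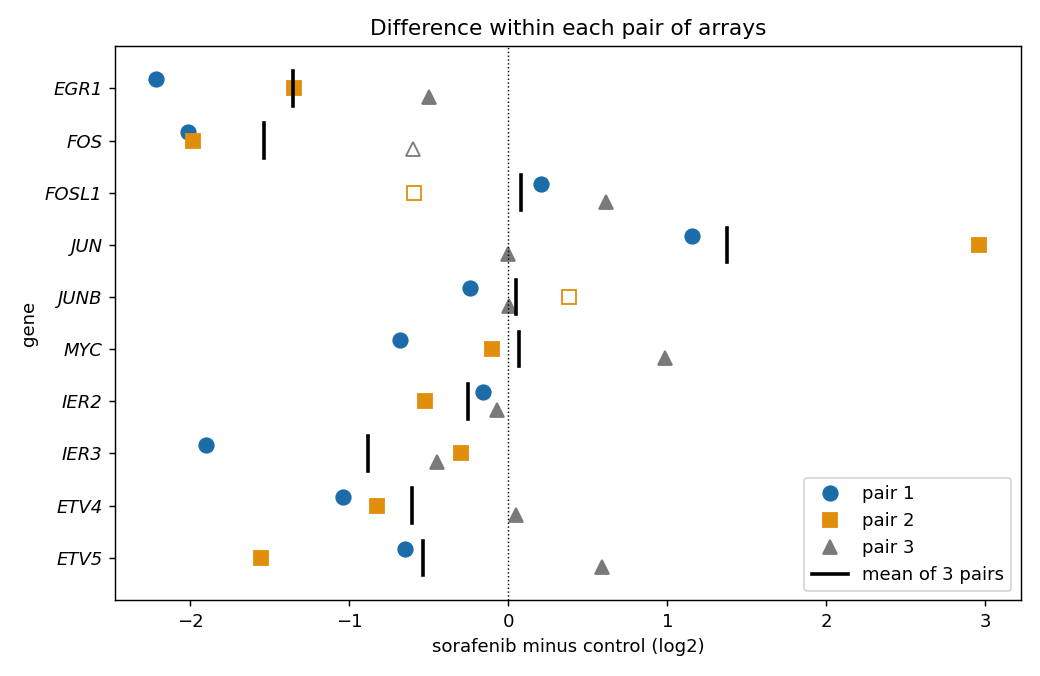
Difference in log2 signal, sorafenib minus control, within each pair (horizontal axis) for the 10 genes, with a black bar at the mean of 3 pairs and open symbols where neither array of the pair was detected. EGR1, FOS, IER2 and IER3 lie left of 0 in all 3 pairs, whereas ETV4, ETV5 and MYC lie left of 0 in pairs 1 and 2 and right of 0 in pair 3.

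Counted over the 9 tested genes, 3 were lower in all 3 pairs, namely EGR1, IER2 and IER3, against 22.2% of all tested symbols. In all 3 pairs 1 was higher, JUN, by 0.0012 in pair 3, against 21.5% of all tested symbols. In both pairs 1 and 2, 6 of the 9 were lower, against 32.6% of all tested symbols, and 1 of the 9, JUN, was higher, against 32.9%. All sorafenib arrays lay above all control arrays for 0 of the 9, against 3.22% of all tested symbols. At least 1 log2 unit lower in both of these pairs was EGR1 alone, against 0.635% of all tested symbols, and JUN alone was at least 1 unit higher in both, against 0.683%. The genes with at least 2 log2 units between the arrays numbered 3 and the others were IER3 (mean of 15.05 against 10.15), JUNB (9.42 against 5.90) and ETV4 (7.70 against 10.34), 3 of the 9, against 11% of all tested symbols.

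**Figure D3:**
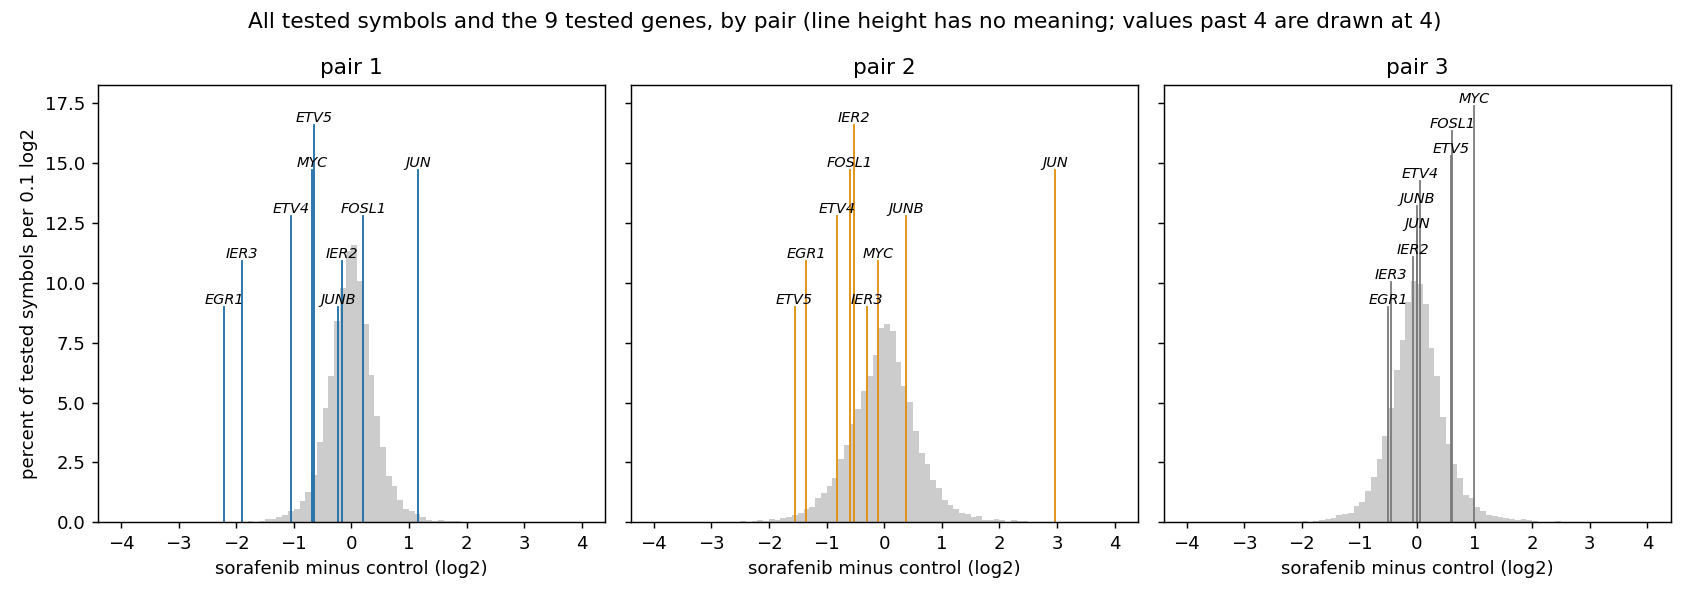
Share of the 14641 tested symbols (vertical axis, percent for each 0.1 log2) by their difference, sorafenib minus control (horizontal axis, log2), in pairs 1, 2 and 3, with lines at the 9 tested genes. EGR1 and IER3 lie in the lower tail of pair 1 and JUN in the upper tail of pair 2 at 2.96, and in pair 3 MYC, at 0.99, lies farthest from 0 among the 9.

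The symbols whose levels over the 6 arrays were nearest to those of EGR1, each centred on its own mean, were NT5DC2, B3GAT3 and ZDHHC23, at Euclidean distances of 0.93, 0.95 and 0.96 log2 units. Their Pearson's r with EGR1 over these 6 arrays was 0.954, 0.964 and 0.886. Nearest to MYC were LOC645330, CCDC109B and LOC440341, at 0.53, 0.54 and 0.61 log2 units. These are descriptions over arrays that share their replicate numbers.

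Other genes of the pathway were followed in lists. Genes that ERK induces, nearly all of which restrain its signalling (DUSP phosphatases, SPRY and SPRED proteins and ERRFI1, beside cyclin D1), had 12 tested members of 15, with a median of −0.45 and pair medians of −0.70, −0.58 and −0.05. Of these, 7 were lower and 1 was higher in all 3 pairs, against 22.2% and 21.5% of all tested symbols. The paired fit called 0, and the paired trended fit called 2, DUSP6 and SPRY2, both lower. The ERK phosphatase DUSP6 fell by 1.55 ± 0.57 (SD, n = 3 pairs; adjusted p = 0.0381, limma's paired trended fit). DUSP6 was detected on 4 of 6 arrays, those numbered 1 and 2. Its difference of −0.90 in pair 3, where neither array was detected, enters this mean, the call and the count of genes lower in all 3 pairs. SPRY2, which restrains receptor signalling to ERK, fell by 0.78 ± 0.17 (SD, n = 3 pairs; adjusted p = 0.0405, limma's paired trended fit). SPRY4 differed by −1.11 and DUSP1, a phosphatase that is itself an immediate early and stress gene, by 1.23, and neither passed.

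The list of other immediate early genes held 38 symbols. With 29 tested, 10 of them lay higher and 3 lower across all 3 pairs, against 21.5% and 22.2% of all tested symbols. The median was 0.41, with pair medians of −0.09, 0.64 and 0.38. The paired fit called 0 and the paired trended fit called 1. PPP1R15A, a phosphatase subunit of the stress response also known as GADD34, rose by 1.61 ± 0.86 (SD, n = 3 pairs; adjusted p = 0.0405, limma's paired trended fit). KLF6, a zinc finger factor, differed by 0.73, 2.31 and 0.70 in pairs 1, 2 and 3, and PHLDA1 by 1.21, 1.72 and 0.67, without passing. ATF3, an AP-1-type factor of the stress response, was detected on 0 of 6 arrays by its deposited detection p and was therefore not tested. It was chosen after its values were seen, with a log2 level of 8.72, 10.27 and 10.36 on sorafenib arrays 1, 2 and 3 and of 7.87, 7.65 and 7.16 on control arrays 1, 2 and 3. Its differences were 0.85, 2.62 and 3.19 in pairs 1, 2 and 3, and on every array it lay above the lowest level of a detected single-probe symbol, which was 5.78 to 6.04, so its signal and its detection p do not go together. EGR3 and EGR4, relatives of EGR1, were at 4.94 to 5.44 and were detected on 0 of 6 arrays.

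The list of ETS, SRF and repressor factors, which act on promoters of such genes, had 14 tested members of 17 and a median of 0.01. Of these, 3 were higher and 3 lower in all 3 pairs, against 21.5% and 22.2% of all tested symbols. In limma's paired or paired trended fit 0 passed. SRF itself differed by −0.47 ± 0.28 and CIC, the repressor of ETV4 and ETV5, by −0.62 ± 0.22 (SD, n = 3 pairs each). ETS2 differed by 0.59 ± 0.30. In the RAS, RAF and ERK cascade 11 of 16 were tested, with a median of 0.06, and 0 passed. BRAF differed by 1.04 and 1.66 in pairs 1 and 2. In pair 3 BRAF was at 5.39 under sorafenib and 5.10 in control. Both lay below the lowest level of a detected single-probe symbol on these arrays, 6.04 and 5.90. The BRAF difference of 0.29 in pair 3 is thus between background values. The kinases MAPK3 and MAP2K1 differed by 0.19 and −0.13 on average.

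Around MYC, 11 of 15 partners and antagonists were tested, with a median of 0.23, and 1 was called by the paired trended fit. MXD4, which pairs with MAX against MYC, fell by 1.04 ± 0.26 (SD, n = 3 pairs; adjusted p = 0.0372, limma's paired trended fit). MXD1, a relative of MXD4, differed by 0.69. The calls of DUSP6, SPRY2, PPP1R15A and MXD4 rest on the trended fit: in limma's paired fit their adjusted p was 0.1003, 0.114, 0.112 and 0.1003. In the paired trended fit all of them lost their call without pair 2 (adjusted p = 0.105 to 0.123). PPP1R15A also lost it without pair 3 (0.239) and kept it without pair 1 (0.0145), whereas DUSP6, SPRY2 and MXD4 lost it without pair 1 (0.0756 to 0.126) and kept it without pair 3 (1.88e-07, 0.00322 and 1.29e-05). Of 25 known MYC targets 22 were tested, with a median of −0.18 and pair medians of −0.46, 0.12 and 0.06. Of these, 5 were lower and 1 higher in all 3 pairs, against 22.2% and 21.5% of all tested symbols. In limma's paired or paired trended fit 0 passed. TFRC differed by −0.58, LDHA by −0.49 and DDX18 by −0.47.

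Among partners and targets of AP-1 and EGR1, 12 of 20 were tested, with a median of 0.11 and pair medians of −0.13, 0.09 and 0.38. Of these, 4 were higher and 1 lower in all 3 pairs, against 21.5% and 22.2% of all tested symbols. In limma's paired or paired trended fit 0 passed. BATF, an AP-1 family factor, differed by 0.88, 2.57 and 0.34 in pairs 1, 2 and 3, without passing. PLAU, the urokinase gene, differed by 0.79 ± 0.33 (SD, n = 3 pairs). The corepressors of EGR1, NAB1 and NAB2, which EGR1 can induce, differed by −0.09 and 0.12.

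**Figure D4:**
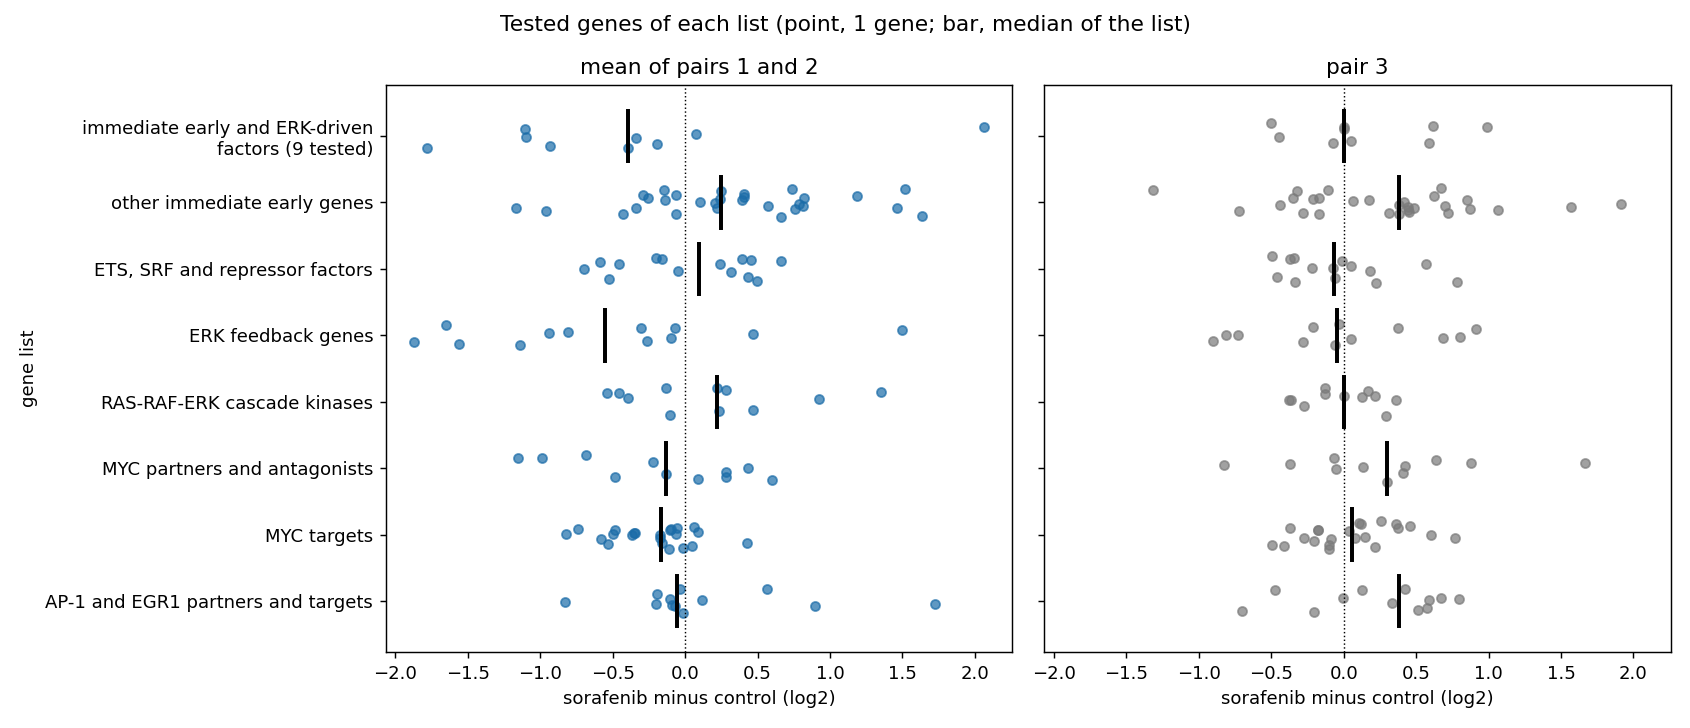
Difference in log2 signal, sorafenib minus control (horizontal axes), of each tested gene (points) in the immediate early and ERK-driven factors and in 7 further lists, as the mean of pairs 1 and 2 (left) and in pair 3 (right), with black bars at the list medians. In pairs 1 and 2 the ERK feedback genes have a median of −0.56 and the other immediate early genes a median of 0.25, and in pair 3 the medians are −0.05 and 0.38.

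Without pair 3 the paired fit called 3 of the 12 ERK feedback genes lower and 0 higher, against 0.867% and 0.984% of all tested symbols, and the paired trended fit called 6 lower and 0 higher, against 4.66% and 4.1%. Of the 29 other immediate early genes the paired fit called 1 higher and 0 lower, and the paired trended fit 5 higher and 2 lower. Genes named above without a call passed in both fits in these pairs in 4 cases: PHLDA1 (difference 1.47, limma's adjusted p = 0.0327 paired and 0.00022 trended), SPRY4 (−1.56, 0.0304 and 0.000693), BRAF (1.351, 0.0369 and 0.00177) and BATF (1.73, 0.0498 and 0.00362). In both pairs the BATF controls lay below the lowest detected level given above, so its pass rests on a difference against background. KLF6, PLAU, TFRC and LDHA passed in the trended fit alone. The hepatocyte markers were also followed between groups. Over all 10, the summed normalized signal was 35250 to 140980 under sorafenib and 38836 to 150410 in control. In all 3 pairs 6 of the 10 were lower and 1 was higher, against 22.2% and 21.5% of all tested symbols. Of these 6, APOA1, APOA2 and TTR were detected on 4 of 6 arrays, those numbered 1 and 2. Their levels of 5.21 to 5.67 on the arrays numbered 3 were at background, so their order in pair 3 was not measured. Without pair 3, 0 of the 10 were called in the paired fit and 3 were called lower in the paired trended fit. The part of cell state or cell number in the differences described here was not tested, and in such RNA extracts fewer cells expressing a gene and less RNA in each cell cannot be told apart.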

How the data were processed

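Signals of 6 arrays were analysed. Per the file headers, the authors deposited 1 signal intensity per gene symbol and array with a detection p-value beside it, described as non-normalized; how probes were combined is not given in the sources used here. A deposited log2 table, in which each sorafenib column was filled for 59 symbols, entered no comparison. Rows of the signal tables were matched by symbol. Background was corrected by limma 3.58.1 (R 4.3.3) with the normal-exponential model of neqc, offset 16, its background taken from 27247 symbols whose p-values were whole multiples of 1/770 (tolerance 0.001), followed by quantile normalization and log2. Tests were limma's moderated tests on sorafenib minus control with the replicate number as a block, Benjamini-Hochberg adjustment over all 14641 symbols tested and a threshold of 0.05. The block is what the comparison within replicate numbers asks for. Deviations from the group mean correlated at 0.904, 0.79 and 0.926 between same-numbered arrays. The paired trended fit adds a variance trend and robust estimation. Members and lists were chosen with earlier results of these data known. The rule named all 10 genes, any called member of the other lists and, of each list, the 3 largest differences of equal sign in all pairs, and the 3 symbols nearest to EGR1 and MYC. Other genes named were chosen after their values were seen. One gene that the rule names is not reported here. The number of arrays limits the precision. Promoters and their coordinates came from RefSeq (GRCh38.p14).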

Additional observations from a re-analysis of the deposited data

How the results depend on the processing

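Over the alternatives that kept all 3 pairs, limma called 0 of the 9 tested genes. Called symbols numbered 0 with no replicate block, 141 with variance trend and robust estimation, 3 without background correction, and 0 in the main setting and the remaining ones. Leaving out 1 pair gave 0 to 271 called symbols and 0 to 2 of the 9 genes in the paired fit. With variance trend and robust estimation it gave 38, 1 and 1283 symbols without pairs 1, 2 and 3, and 0 to 5 of the 9 genes. That fit called 171 symbols without background correction and 0 where all symbols gave the background. EGR1 kept its sign, at −1.42 to −0.31 over alternatives with all pairs, the smallest where all symbols gave the background, whose estimated spread was then 604 to 837 intensity units against 20.1 to 31.8. JUN was at 1.28 to 1.45 over the same alternatives. Leaving out 1 pair, JUN ranged from 0.58 (without pair 2) to 2.06 (without pair 3), EGR1 from −1.78 (without pair 3) to −0.92 (without pair 1), IER3 from −1.17 (without pair 2) to −0.37 (without pair 1), ETV4 from −0.93 (without pair 3) to −0.39 (without pair 1) and ETV5 from −1.10 (without pair 3) to −0.029 (without pair 2). FOSL1 turned to −0.0060 without background correction. Leaving out 1 pair, FOSL1 ranged from −0.19 to 0.41, MYC from −0.39 to 0.44 and JUNB from −0.12 to 0.19. The ETS, SRF and repressor factors were at −0.013 with median scaling, −0.061 at a detection p under 0.01 and −0.080 to 0.097 with 1 pair left out. The MYC partners were at −0.011 where all symbols gave the background and −0.13 to 0.25 with 1 pair left out. With 1 pair left out, the MYC targets ranged from −0.23 to 0.031, the ERK cascade from −0.069 to 0.22 and the AP-1 and EGR1 list from −0.054 to 0.25. The cause of these changes was not tested.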
